A study of Mus musculus with 65 samples.

Results

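The genes described here are 44 genes of the primary cilium that support Sonic hedgehog (Shh) signalling, and they were taken by name from the 25239 genes of the expression table. They comprise the transcription factors Rfx1, Rfx2, Rfx3, Rfx4 and Foxj1, 10 genes of the intraflagellar transport complex B (IFT-B), 3 genes of complex A (IFT-A), 5 motor subunits, 7 genes of the Bardet-Biedl syndrome (BBS) group, 9 ciliary regulators of the Shh pathway and 5 genes of the transition zone. All 44 were in the table, and 43 of them reached the minimum for testing, a mean of 10 normalised reads, as did 13964 genes in total. Foxj1 was below that minimum.

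The primary cilium is a single, non-motile, microtubule-based protrusion of the cell surface. In vertebrate cells the Shh receptor Ptch1 leaves the cilium when Shh is bound, Smo enters it, and the Gli proteins are processed and activated there. IFT-B carries cargo with kinesin-2 towards the tip and IFT-A with dynein-2 back to the base, the BBSome removes membrane receptors, and the transition zone acts as a gate at the base. RFX proteins bind a motif called the X-box in the promoters of many cilium genes, and Foxj1 is the master regulator of motile cilia.

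The cells were neural progenitors made from 1 mouse embryonic stem cell line, HM1. Neuromesodermal progenitors (NMP, the common precursor of spinal cord and paraxial mesoderm) were collected at day 3 without SAG. From day 3 all other cultures received 100 nM retinoic acid and 0, 10, 100 or 500 nM SAG, a small molecule that activates Smo and so the Shh pathway below its receptor. Cells were fixed with paraformaldehyde and sorted on intracellular transcription factors into p3, pMN, p2 and p0-1 progenitors, which are the ventral to more dorsal classes of the ventral neural tube, and RNA was recovered from the fixed cells and amplified. At each of days 4, 5 and 6 there were 8 groups, with p0-1 cells at 0 and 10 nM SAG, p2 cells at 10 and 100 nM, and pMN and p3 cells at 100 and 500 nM. Where cell types were compared over different SAG concentrations, as p3 and p0-1 were, cell type and concentration cannot be told apart.

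In all there were 65 libraries in 25 groups, of which 3 were of NMP and 16, 24 and 22 of progenitors at days 4, 5 and 6. Of the groups, 17 had 3 libraries, 6 had 2 and 2 had 1. The study describes the replicates of its paired chromatin assay as independent differentiations, while the descriptions of the RNA samples do not say how replicates were made, so p-values measure the spread between these libraries. These were bulk libraries of sorted cells, in which fewer cells of a type and less RNA per cell cannot be told apart. Each library held 7615114 to 13484815 reads in genes. In the days 5 and 6 libraries the medians of the markers below followed the labels, while the ranges of Olig2 overlapped. Nkx2-2, the p3 marker, had 121 to 426 normalised reads in p3, up to 98.1 in pMN and 0 in every p0-1 library. Olig2, the pMN marker, had 1368 to 6214 in pMN and a median of 769 in p3. Its highest values were 1741 in p3 and 1452 in p2. Nkx6-1, a marker of p2 and the more ventral types, was at 0 in 7 of 12 p0-1 libraries and had 134 to 702 in p2. T, a marker of NMP, had 909 to 3749 in the NMP libraries. In p3 of days 5 and 6 it was at 0 in 10 of 11 libraries and reached 262.

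The X-box gives the RFX factors a link to the other cilium genes, so the promoter matches are shown first. The motif searched was GTNNCC and GNNAC with 3 bases between them, on both strands, in RefSeq windows from 250 bases before to 50 bases after each gene's start (GRCm38.p6). Windows were found for 37 of the 44 genes, and none for Foxj1, Ift80, Ift81, Ift122, Dync2li1, Efcab7 and Iqce. A match was present in 10 of the 37 genes, or 27%, beside 1422 of 27025 genes (5.26%) over all genes with a window. The shorter motif GTTGCC, which can lie inside the longer one, was present in 19 of the 37 (51.4%) beside 14.1% of all genes. A match is a description of letters in these windows, and binding was not measured. Of the 12 matches, 7 began before the start and 5 after it. All are printed 5′ to 3′ in the direction of the gene, with the match in capitals. For the second match of Ift57 the motif itself reads on the opposite strand.
Rfx2 (an RFX factor; chr17:56830961-56830974, minus strand, 34 bases after the start): tagagactGTAGCCGTGGAGACtg
Ift22 (IFT-B; chr5:136908087-136908100, plus strand, 63 bases before the start): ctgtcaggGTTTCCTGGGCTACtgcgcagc
Ift22 (second match; chr5:136908117-136908130, plus strand, 33 bases before the start): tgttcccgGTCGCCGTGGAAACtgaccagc
Ift57 (IFT-B; chr16:49699207-49699220, plus strand, 87 bases before the start): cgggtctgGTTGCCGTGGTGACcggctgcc
Ift57 (second match; chr16:49699242-49699255, plus strand, 52 bases before the start): gttgcctgGTAACGGTGGGGACtgtgcggt
Dync2h1 (dynein-2 heavy chain; chr9:7177030-7177043, minus strand, 15 bases after the start): gtgaagcgGTCGCCATAGCGACggagcttg
Bbs1 (BBSome; chr19:4906613-4906626, minus strand, 1 base after the start): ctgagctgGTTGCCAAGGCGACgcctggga
Bbs4 (BBSome; chr9:59353472-59353485, minus strand, 23 bases after the start): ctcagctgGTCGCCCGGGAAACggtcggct
Bbs7 (BBSome; chr3:36613497-36613510, minus strand, 121 bases before the start): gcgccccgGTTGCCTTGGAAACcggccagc
Mks1 (transition zone; chr11:87853191-87853204, plus strand, 24 bases before the start): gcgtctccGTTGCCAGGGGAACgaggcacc
Tctn1 (transition zone; chr5:122264411-122264424, minus strand, 36 bases after the start): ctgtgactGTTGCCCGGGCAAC
Tctn2 (transition zone; chr5:124598687-124598700, plus strand, 62 bases before the start): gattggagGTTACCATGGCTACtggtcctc

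The cilium genes were not all detected in every library. The deposited values are read counts divided by a size factor per library, called normalised reads here. Together the 44 genes took 0.110 to 0.299% of the reads of a library. A median of 42 of the 44 had at least 1 read per library, with a range from 32 to 44. There were 19 genes with reads in every library and 17 that were at 0 in 1 to 5 libraries. The other 8 were Bbs1, Arl6 and Gpr161 (at 0 in 6 libraries each), Efcab7 (9), Bbs9 (10), Rfx2 (11), Kif17 (37) and Foxj1 (46).

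The number of cilium genes detected moved with the number of all genes detected. All genes with at least 1 read ranged from 9718 to 15963 per library, with a median of 12891. The 5 libraries with the fewest genes had 9718 to 11118, against 11416 for the next, and 32 to 37 of the 44 cilium genes. They were 3 p3 and 2 p2 libraries, all at 100 nM SAG, and held 45 of the 167 zeros of the cilium genes (26.9%). One of them is the only library of the day 4 p3 group at 100 nM (replicate 3). Because these libraries touch comparisons of p3, p2 and day 4, values without them are given beside several results, and each such value is named as one without the 5 libraries.

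**Figure D1:**
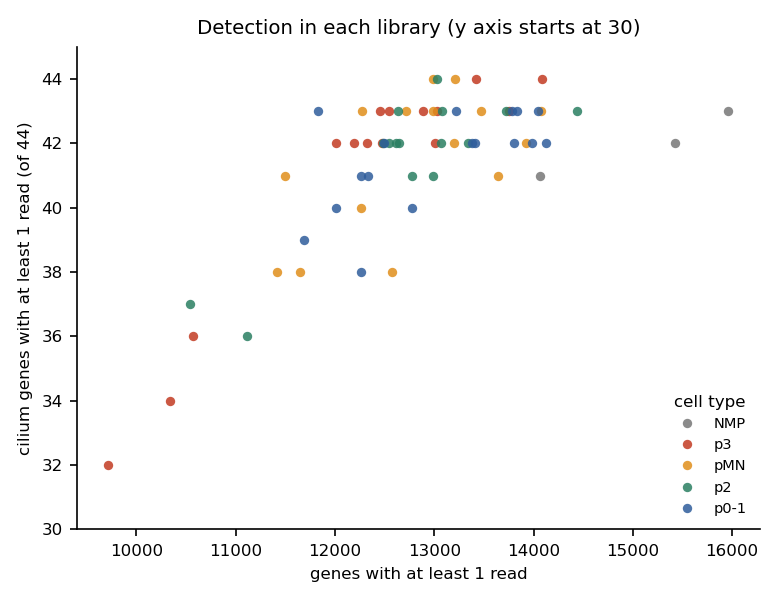
Each point is 1 of the 65 libraries, with the number of genes having at least 1 read on the x axis and the number of the 44 cilium genes having at least 1 read on the y axis, which starts at 30. The 5 libraries at the left, with 9718 to 11118 genes, have 32 to 37 cilium genes, while the median over all libraries is 42.

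Levels differed widely between the cilium genes in the 46 progenitor libraries of days 5 and 6. Per kb of exon, the median gene had 101 normalised reads. There were 22 genes above 100 per kb, 20 between 10 and 100 and 2 below 10. The highest were the factor Rfx4 at 532, the IFT-B subunits Ift27 at 524 and Ift20 at 422, the IFT-A subunit Ift43 at 383, the kinesin-2 motor subunit Kif3a at 342.5 and Ift81, which binds tubulin in IFT-B, at 326 per kb. The lowest were Bbs9 at 25.9, Bbs1 at 24.5, the kinesin-2 family motor Kif17 at 6.53 and Foxj1 at 2.36 per kb.

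By role, IFT-B had the highest median level per kb, 200 over its 10 genes (98.0 to 524). The BBS group had a median of 106 (24.5 to 223), IFT-A 87.1 (76.0 to 383) and the transition zone genes 73.2 (38.7 to 251). The motors ranged from 6.53 to 342.5 and the ciliary Shh regulators from 35.6 to 123 per kb. Neighbouring roles therefore overlapped in their ranges. The spread between libraries was large, with a median coefficient of variation over days 5 and 6 of 63.2% per gene. Kif3a (31.5%), Ift81 (32.7%) and Inpp5e (37.7%) varied least.

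**Figure D2:**
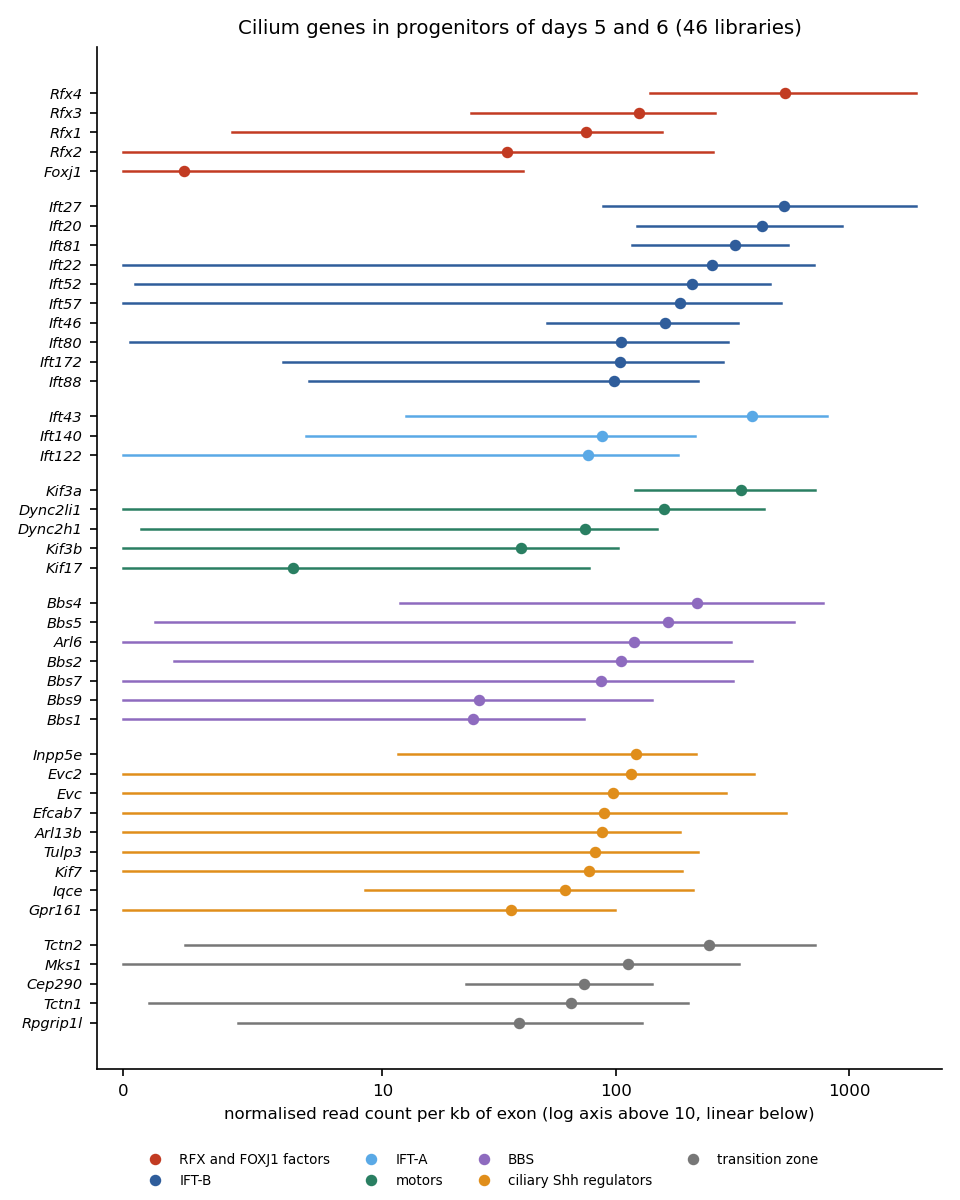
The points are the mean normalised read counts per kb of exon of the 44 cilium genes over the 46 libraries of days 5 and 6, grouped by role, and the lines run from the lowest to the highest library. The x axis is logarithmic above 10 and linear below. Rfx4 (532 per kb) and Ift27 (524) are highest, and the lines of 22 genes are above 100 at their mean.

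Rfx4 (chr10:84756048-84906538, plus strand, mm10) encodes an RFX factor of the neural tube and was called in 3 comparisons. In the 3 NMP libraries it had 0, 13.5 and 14.05 normalised reads. In the 16 day 4 libraries it had 729 at the lowest, 1706 at the median and 2502 at the highest. All day 4 libraries were above all NMP libraries. Rfx4 rose by a log2 change of 8.10 (SE 0.43), with an adjusted p of 1.01e-20 by limma with Benjamini-Hochberg adjustment.

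Within the progenitors, Rfx4 was highest in p3. Over days 5 and 6 the lowest, median and highest values were 1895, 3357 and 7870 in p3 (3958 ± 1585, SD, n = 11). They were 1169, 1759 and 2819 in pMN (1865 ± 522, n = 11), 624, 1584 and 2577 in p0-1 (1587 ± 560, n = 12) and 570, 1349 and 2584 in p2 (1382 ± 575, n = 12). The p3 range overlapped the other ranges at its lower end only. Rfx4 was higher in p3 than in p2 by 1.60 on the log2 scale (SE 0.28, limma adjusted p = 0.00022) and higher than in p0-1 by 1.38 (SE 0.28, adjusted p = 0.00122), both called at the threshold used here, an adjusted p below 0.01 with a change over 2-fold. Called genes made up 1.27% of all genes tested for p3 against p2 (0.723% higher in p3) and 1.43% for p3 against p0-1 (0.888% higher), and Rfx4 was the only 1 of the 43 cilium genes called in either.

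Against pMN, Rfx4 was higher in p3 by 1.07 on the log2 scale (SE 0.29, limma adjusted p = 0.0416), which was not called. Without the 5 libraries with the fewest genes the limma adjusted p was 0.0786 (1.05), and without the day 6 p3 library at 500 nM (replicate 3) it was 0.182 (0.96), so Rfx4 was then above the looser threshold of 0.05. The same held without each of several other single libraries, such as replicate 3 of the day 5 pMN group at 500 nM (1.01, limma adjusted p = 0.0821). With all libraries, Rfx4 was called for p3 against pMN by edgeR (1.05, adjusted p = 0.00825) and DESeq2 (1.06, adjusted p = 1.56e-05). It was also called by limma on the compared libraries only (1.07, adjusted p = 0.00162) and with a pseudocount of 10 (1.06, adjusted p = 0.00164). The main limma fit took the spread of a gene from all 65 libraries, those of NMP included. The other orderings of Rfx4 did not differ beyond the spread, with log2 differences of 0.53 (95% interval −0.04 to 1.10) for pMN minus p2, 0.31 (−0.26 to 0.88) for pMN minus p0-1 and −0.22 (−0.77 to 0.33) for p2 minus p0-1. By day, Rfx4 in p3 had a mean of 1936 on day 4 (n = 4), 2904 ± 543 on day 5 (n = 6) and 5223 ± 1499 on day 6 (n = 5). The 5 day 6 libraries of p3 had 4264, 4401, 4710, 4872 and 7870, all above every library of the other 3 cell types on that day, whose highest value was 2819. On day 4, the p3 libraries reached 2386 and overlapped the other types.

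The call for p3 against p0-1 rested in part on 1 library. Without the day 6 p3 library at 500 nM with the value of 7870 (replicate 3), the log2 difference was 1.27 with a limma adjusted p of 0.0106, and the call was lost. With all libraries, edgeR (1.32, adjusted p = 9.44e-05) and DESeq2 (1.33, adjusted p = 3.31e-09) made the same call. Leaving out replicate 3 of the NMP gave a limma adjusted p of 5.81e-06. Comparing only the day 6 groups gave 1.86 (adjusted p = 0.00795), and only the day 5 groups 0.90 (adjusted p = 0.322). Such narrowed comparisons, here and below, took the spread from all 65 libraries. For p3 against p2, comparing only libraries at 100 nM SAG gave 1.53 (adjusted p = 0.0188), the day 5 libraries 1.62 (adjusted p = 0.0341) and the day 6 libraries 1.57 (adjusted p = 0.0254). For p3 against pMN, leaving out replicate 3 of the NMP brought the adjusted p of Rfx4 to 0.00169 at a log2 difference of 1.07, which was then called. At matched SAG the p3 minus pMN differences of Rfx4 were 1.06 at 100 nM (adjusted p = 0.143) and 1.08 at 500 nM (adjusted p = 0.486).

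Floor plate markers moved with Rfx4. The floor plate is the ventral midline tissue beside p3, and 4 of its markers (Foxa2, Shh, Ntn1 and Spon1) summed to 3190 at the lowest, 7518 at the median and 21320 at the highest in p3, against 1139 to 3132 in pMN, 1073 to 3733 in p2 and 474.5 to 2889 in p0-1. All 4 were called higher in p3 against p2 and against p0-1, and 3 of 4 against pMN. None of the 4 was at 0 in all libraries of a cell type. Their part in the result was not tested.

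Rfx2 (chr17:56775897-56831008, minus strand) was detected unevenly. It had 0, 194 and 878 normalised reads at the lowest, median and highest in the 11 p3 libraries of days 5 and 6, and 0, 3.68 and 119 in the 11 pMN libraries, of which 5 were at 0. The ranges overlapped. The log2 difference was 4.53 (SE 1.15, limma adjusted p = 0.0245) and was not called, although it passed an adjusted p of 0.05. In edgeR the adjusted p was 0.0756. Leaving out replicate 3 of the day 6 pMN group at 500 nM gave 4.18 (limma adjusted p = 0.0951), and leaving out replicate 3 of the day 6 p3 group at 500 nM gave 4.37 (adjusted p = 0.0875). Comparisons narrowed to single concentrations or days took the spread from all 65 libraries and were also above 0.05. They gave 3.56 at 100 nM (adjusted p = 0.226), 5.51 at 500 nM (adjusted p = 0.225), 3.13 for day 5 (adjusted p = 0.597) and 5.94 for day 6 (adjusted p = 0.117). Without the 5 libraries with the fewest genes it was called, at 5.81 (adjusted p = 0.000313). It was also called at 5.06 (adjusted p = 0.00785) when replicate 2 of the day 5 p3 group at 100 nM was left out, and at 5.28 (adjusted p = 0.00292) when replicate 2 of the day 6 p3 group at 100 nM was left out. The p2 and p0-1 libraries had means of 80.9 and 108, and Rfx2 in p3 differed from them by 1.95 (95% interval −0.29 to 4.18) and 1.01 (−1.23 to 3.25) on the log2 scale. Without the 5 libraries the difference from p0-1 was 2.28 (limma adjusted p = 0.211).

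Rfx1 and Rfx3, which are expressed in many ciliated tissues, were present from day 3 on. Rfx3 (chr19:27761721-28011166, minus strand) had 382, 514 and 1260 normalised reads in the NMP libraries and medians of 723 on day 4 (112 to 1219), 1111 on day 5 (466 to 2093) and 1238 on day 6 (225 to 2503). Rfx1 (chr8:84066836-84096992, plus strand) had 175, 223 and 352 in the NMP libraries and medians of 166 on day 4 (5.47 to 265) and 363 on day 6 (32.0 to 615). The days overlapped for both genes. Their tests by day are given with the other day comparisons, and neither was called between cell types.

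Foxj1 (chr11:116330704-116335354, minus strand) was close to absent. It was above 0 in 19 of the 65 libraries and above 10 normalised reads in 4, all of them p3. These 4 were replicates 2 (103) and 3 (15.5) of the day 5 p3 group at 500 nM, replicate 3 (85.5) of the day 6 p3 group at 100 nM and replicate 1 (12.2) of the day 6 p3 group at 500 nM. The highest value outside p3 was 9.54. The floor plate markers in the same 4 libraries summed to 3190, 7518, 14700 and 8517, and their part was not tested. Foxj1 was not in the test because its mean was below 10.

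**Figure D3:**
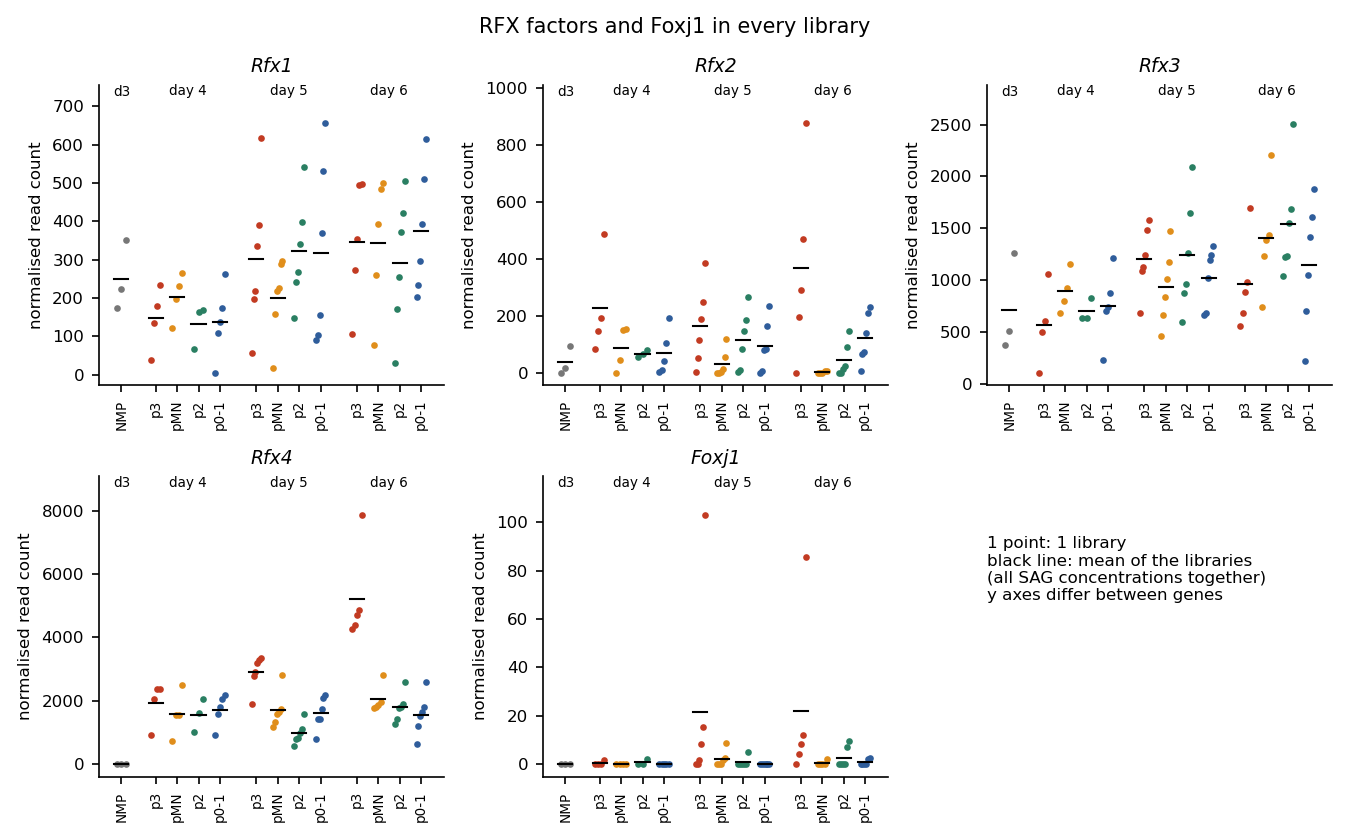
Normalised read counts of Rfx1, Rfx2, Rfx3, Rfx4 and Foxj1 in each of the 65 libraries, by day and cell type, with all SAG concentrations together; each point is 1 library, the lines are means, and the y axes differ between genes. Rfx4 is at 14.05 or less in the NMP libraries and at 729 or more on day 4, and its 5 p3 values on day 6 (4264 to 7870) are above all others of that day.

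From NMP to day 4 progenitors, few cilium genes changed. Of the 43, 2 rose and 0 fell, where 1.32% of all genes tested were called higher and 3.49% in either direction. These 2 were Rfx4 and Kif3a. The median log2 change of the 43 was −0.13, beside −0.40 over all genes. Above 0 were 17 of the 43, beside 33% of all genes. With 3 NMP libraries the precision was low. The 95% intervals reached a median of 1.75 to each side on the log2 scale, and those of 15 of 43 genes excluded a 4-fold change.

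Kif3a (chr11:53567369-53604246, plus strand), the motor subunit of kinesin-2 that drives transport to the ciliary tip, had 910, 637 and 550 normalised reads in the NMP libraries. On day 4 it had 1053 at the lowest, 1433 at the median and 2012 at the highest. The groups did not overlap. Kif3a rose by 1.08 on the log2 scale (SE 0.27, limma adjusted p = 0.00698), and edgeR gave an adjusted p of 0.0105. The call was lost without replicate 2 or 3 of the NMP (1.03, adjusted p = 0.0714, and 0.92, adjusted p = 0.112), without replicate 3 of the day 4 p0-1 group at 0 nM (1.06, adjusted p = 0.0103), and without replicate 3 of the day 4 pMN groups at 100 nM (1.04, adjusted p = 0.0104) or 500 nM (1.05, adjusted p = 0.0107). The 4 NMP markers (T, Cdx2, Nkx1-2 and Fgf8) were all called lower on day 4, with sums of 2205 to 5821 in the NMP and 0 to 454.5 on day 4. The libraries of day 3 also had more genes detected, with a median of 15429 against 13174. The part of both in the result was not tested.

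From day 4 to days 5 and 6, the cilium genes that passed either threshold were all higher on the later day. Day 5 against day 4 called 1 of 43 cilium genes, Bbs2, beside 4.3% of all genes tested (3.1% higher). At an adjusted p below 0.05 with any size of change there were 5 (Bbs2, Rpgrip1l, Rfx3, Ift80 and Kif3a), beside 12.3% of all genes. Day 6 against day 4 called 2, Bbs2 and Rpgrip1l, beside 8.87% (5.83% higher), and passed 5 at the looser threshold (also Rfx1, Rfx3 and Ift80), beside 22.3%. The share of cilium genes called was not above that over all genes in either comparison. The median log2 change of the 43 genes was 0.38 (0.01 over all genes) from day 4 to day 5, and 0.37 (0.02 over all genes) from day 4 to day 6. In the latter 29 of the 43 were above 0, beside 51% of all genes.

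Bbs2 (chr8:94067952-94098509, minus strand), a BBSome subunit, had 0, 153 and 436 normalised reads at the lowest, median and highest on day 4, 5.21, 252 and 1010 on day 5, and 54.9, 283 and 571 on day 6. The days overlapped. On the log2 scale Bbs2 rose by 1.96 (SE 0.50, limma adjusted p = 0.00549) from day 4 to day 5 and 2.12 (SE 0.51, adjusted p = 0.00164) from day 4 to day 6. Rpgrip1l (chr8:91217030-91313222, minus strand), a scaffold of the transition zone, had 0, 123 and 657 on day 4 and 30.7, 264 and 904 on day 6. Its log2 changes were 1.53 (adjusted p = 0.0114, not called) to day 5 and 1.92 (SE 0.44, adjusted p = 0.000782) to day 6.

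The remaining genes at the looser threshold changed by less or with less precision. Rfx3 differed by 0.80 (SE 0.22, limma adjusted p = 0.00963) from day 4 to day 5 and by 0.96 (SE 0.22, adjusted p = 0.000945) to day 6, under the 2-fold limit. Rfx1 differed by 1.13 to day 6 (SE 0.41, adjusted p = 0.0396). Ift80, an IFT-B subunit, had 0, 325 and 593 normalised reads on day 4 and differed by 1.70 (adjusted p = 0.0278) and 1.57 (adjusted p = 0.0329). Kif3a differed by 0.42 to day 5 (adjusted p = 0.046).

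The results for Bbs2, Rpgrip1l and Ift80, and for Rfx3 to day 5, were lost without 1 library. The only day 4 p3 library at 100 nM (replicate 3), with 9718 genes detected, had 0 reads of Bbs2, Rpgrip1l and Ift80 and had the lowest Rfx3 of day 4 (112). Without it, Bbs2 differed by 1.13 (limma adjusted p = 0.185) to day 5 and 1.29 (adjusted p = 0.075) to day 6, Rpgrip1l by 0.67 (adjusted p = 0.4) and 1.06 (adjusted p = 0.0847), and Ift80 by 0.73 (adjusted p = 0.491) and 0.60 (adjusted p = 0.509). Rfx3 then differed by 0.45 (adjusted p = 0.231) and 0.62 (adjusted p = 0.0457). Kif3a differed by 0.41 to day 5 (adjusted p = 0.0711), a value that passed 0.05 only narrowly with all libraries. Rfx1 differed by 1.25 (adjusted p = 0.028) to day 6, but reached an adjusted p of 0.0742 when the only day 4 p2 library at 10 nM (replicate 3) was left out. Several other fits without 1 library also brought Rfx1 to 0.05 or above. Leaving out replicate 2 of the day 6 p2 group at 100 nM was 1 of them (1.03, limma adjusted p = 0.0605). Without the p3 library Bbs2 and Rpgrip1l were thus not called, and no other cilium gene was.

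The call of Bbs2 for day 5 against day 4 was also lost when replicate 3 of the day 4 p0-1 group at 0 nM (1.88, adjusted p = 0.0127 by limma), replicate 2 of the day 4 p2 group at 100 nM (1.90, adjusted p = 0.012), or replicate 2 of the day 4 pMN groups at 100 nM (1.49, adjusted p = 0.0213) or 500 nM (1.92, adjusted p = 0.011) was left out. Without all 5 libraries with the fewest genes, limma called 0 cilium genes in either comparison, and the 2 at the looser threshold for day 6 against day 4 were Rfx1 (1.40, adjusted p = 0.012) and the dynein-2 heavy chain Dync2h1 (0.66, adjusted p = 0.0182). Exons of Dync2h1 overlap those of Dcun1d5 on the other strand by 296 bases, and reads of the 2 genes there cannot be told apart.

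**Figure D4:**
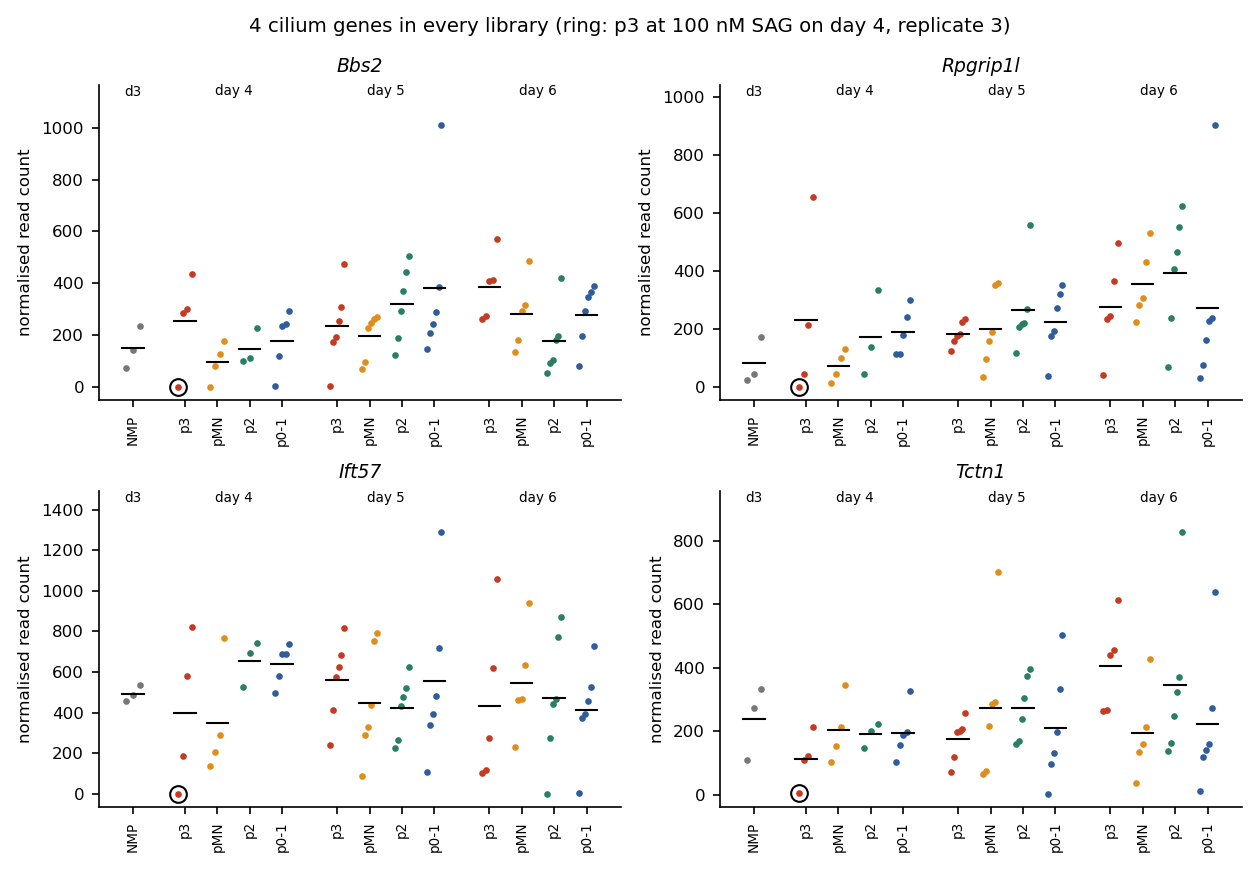
Normalised read counts of Bbs2, Rpgrip1l, Ift57 and Tctn1 in each library, by day and cell type, with means as lines. The ringed point is the only day 4 p3 library at 100 nM (replicate 3), which is at 0 for Bbs2, Rpgrip1l and Ift57 and at 5.12 for Tctn1.

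Neuron markers moved with the days. The 6 markers (Tubb3, Elavl3, Elavl4, Stmn2, Dcx and Map2) summed to 222 to 1277 on day 4, 230.5 to 2594 on day 5 and 1541 to 6105 on day 6, and none was at 0 in all libraries of a day. Of the 6, 5 were called higher on day 6 than on day 4. On day 5 against day 4, 3 were higher and 1 was lower. Their part in the day results was not tested. From day 5 to day 6, 0 of the 43 cilium genes were called by limma, beside 0.852% of all genes. Unadjusted p was below 0.05 for 2, beside 2279 of all 13964 genes. By edgeR 0 were called, beside 94 of all genes, and by DESeq2 1 (Efcab7), beside 899. The lowest p-values belonged to Rfx4, at 0.50 (adjusted p = 0.167), and Efcab7, which anchors the Evc complex in the cilium, at 1.70 (adjusted p = 0.203). The intervals of 37 of the 43 genes excluded a 4-fold change and those of 19 stayed within 2-fold.

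Between cell types of days 5 and 6, Rfx4 was the only cilium gene called by limma. For p3 against pMN limma called 0 of 43, beside 0.695% of all genes, with 4 at an unadjusted p below 0.05, 1 called by edgeR (Rfx4) and 2 by DESeq2 (Rfx2 and Rfx4). The 2 at an adjusted p below 0.05 were Rfx2 and Rfx4, beside 1.56% of all genes. For pMN against p2 limma called 0, beside 0.107% of all genes, with 3 at an unadjusted p below 0.05 and 0 called by edgeR or DESeq2. The lowest p-values there belonged to Rfx2 at −2.59 (adjusted p = 0.362) and the kinesin-2 motor Kif3b at 2.33 (adjusted p = 0.369). For pMN against p0-1 limma called 0, beside 0.96% of all genes, with 2 at an unadjusted p below 0.05, 0 called by edgeR and 2 by DESeq2 (Rfx2 and Kif17). The lowest p-values belonged to Rfx2 at −3.52 (adjusted p = 0.0925, and 0.0273 without the 5 libraries with the fewest genes) and Bbs5 at −1.08 (adjusted p = 0.349). For p2 against p0-1 limma called 0, beside 0.322%, with 2 at an unadjusted p below 0.05 and 0 called by edgeR or DESeq2. The lowest p-values belonged to Tctn1 at 1.14 (adjusted p = 0.527) and Bbs4 at 1.02 (adjusted p = 0.612). Over all 13964 genes, in the order of these comparisons, 1573, 1480, 1636 and 1139 had an unadjusted p below 0.05. Of all genes edgeR called 51, 5, 99 and 23, and DESeq2 782, 587, 749 and 632.

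The medians of the 43 log2 differences lay close to those over all genes. They were −0.12 for p3 minus pMN (−0.09 over all genes), 0.10 for p3 minus p2 (0.00), −0.06 for p3 minus p0-1 (−0.07), 0.22 for pMN minus p2 (0.09), 0.01 for pMN minus p0-1 (0.01) and −0.23 for p2 minus p0-1 (−0.05). These comparisons share libraries. Differences of 4-fold were excluded by the intervals of 24 to 29 of the 43 genes, and intervals within 2-fold were found for 7 to 9.

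The direction of the differences was counted by role. Over all genes, 51% were above 0 for day 6 minus day 4 and 45.1% for p3 minus p0-1. From day 4 to day 6, 7 of 10 IFT-B genes (from −0.54 for Ift22 to 1.57 for Ift80), 2 of 3 IFT-A genes, 3 of 5 motors, 4 of 7 BBS genes (−0.92 for Bbs7 to 2.12 for Bbs2), 5 of 9 regulators and 5 of 5 transition zone genes (0.03 for Tctn2 to 1.92 for Rpgrip1l) had a log2 change above 0. For p3 minus p0-1, 6 of 10 IFT-B genes (−0.55 for Ift80 to 0.57 for Ift57) and 4 of 5 transition zone genes (−0.56 for Cep290 to 1.72 for Tctn2) were above 0, while 0 of 7 BBS genes (−1.35 for Bbs9 to −0.09 for Bbs4) and 0 of 5 motors (−0.63 for Kif17 to −0.03 for Kif3a) were. The median of the BBS genes was −0.77, beside −0.07 over all genes. Without the 5 libraries with the fewest genes, 2 of 7 BBS genes (Arl6 at 0.58 and Bbs7 at 0.42) and 1 of 5 motors (Dync2li1 at 0.64) were above 0 for p3 minus p0-1, and the BBS median was −0.36, beside 0.02 over all genes. All 3 IFT-A genes were then above 0, against 1 with all libraries. For day 6 minus day 4 without these libraries 6 of 7 BBS genes (Bbs7 at 0.02) and 4 of 5 transition zone genes were above 0. These are descriptions of genes measured in the same libraries, and none of the genes named for its position in these ranges other than Bbs2 and Rpgrip1l was called.

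For Kif3a and Ift81, which varied least, the means of the cell types lay within 1 SD of each other. Kif3a had 1854 ± 356 normalised reads in p3, 2054 ± 766 in pMN, 1634 ± 571 in p2 and 1940 ± 580 in p0-1, and its p3 minus p0-1 difference was −0.03 on the log2 scale (95% interval −0.39 to 0.33). Ift81 had 1116 ± 306, 1008 ± 433, 1101 ± 321 and 970 ± 324 in the same order. Of the transition zone genes, Tctn2, a tectonic protein of the ciliary gate, had 1107 ± 634 in p3 and 538 ± 406 in p0-1, with a log2 difference of 1.72 (95% interval 0.59 to 2.84) and a limma adjusted p of 0.0741. Of the BBS genes, Bbs4 had 462 ± 550 in p3, 644 ± 258 in pMN, 752 ± 550 in p2 and 421 ± 255 in p0-1, and no BBS gene passed either threshold between cell types.

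SAG concentration within a cell type called no cilium gene. For p0-1 cells (10 against 0 nM) limma called 0 of 43, beside 0.0143% of all genes, with 2 at an unadjusted p below 0.05, 0 called by edgeR and 1 by DESeq2 (Kif17). For p2 (100 against 10 nM) limma called 0, beside 0.0358%, with 5 at an unadjusted p below 0.05, 0 called by edgeR and 1 by DESeq2 (Kif17). For pMN (500 against 100 nM) limma called 0, beside 0.0% of all genes, with 1 at an unadjusted p below 0.05 and 0 called by edgeR or DESeq2. For p3 (500 against 100 nM) limma called 0, beside 0.0286%, with 4 at an unadjusted p below 0.05, 0 called by edgeR and 1 by DESeq2 (Kif17). Over all 13964 genes, in the order of these comparisons, 681, 1142, 657 and 1627 had an unadjusted p below 0.05. Of all genes edgeR called 1, 1, 0 and 0, and DESeq2 424, 645, 442 and 665. Kif17 was at 0 in 37 of the 65 libraries. The intervals of 19 to 21 of the 43 genes excluded a 4-fold change with SAG, and those of 2 to 6 stayed within 2-fold.

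The lowest p-values with SAG belonged to different roles. In p0-1 they were Kif17 at 3.70 (limma adjusted p = 0.905), which was at 0 in all 6 libraries at 0 nM, and Ift57 at 1.97 (adjusted p = 0.999). In p2 they were Dync2h1, with 749 normalised reads at 100 nM and 1244 at 10 nM (−1.47, adjusted p = 0.397), and Ift57 (−2.21, adjusted p = 0.494). In p3 they were Arl13b, a small GTPase of the ciliary membrane, with 412 at 500 nM and 152 at 100 nM (3.69, adjusted p = 0.206), and Ift43 (1.75, adjusted p = 0.233). In pMN they were Ift22 (−1.95) and Ift46 (0.81), both with an adjusted p of 1.

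The p3 comparison also moved with the number of genes detected. The 6 p3 libraries at 100 nM of days 5 and 6 had a median of 12101 genes, against 13424 in the 5 at 500 nM. The median log2 difference was 0.33 over all genes and 0.52 over the 43 cilium genes. Above 0 were 66.7% of all genes and 34 of the 43 cilium genes. All 9 ciliary Shh regulators were among these 34, from 0.40 for Inpp5e to 3.69 for Arl13b, as were 6 of 7 BBS genes and 3 of 3 IFT-A genes. In the same libraries Arl13b was at 0 in replicate 2 at 100 nM on both days, which are among the 5 libraries with the fewest genes. Without the 3 p3 and 2 p2 libraries with the fewest genes, the median was 0.09 over the 43 cilium genes and 0.14 over all genes, and 27 of the 43 were above 0. Of the regulators 7 of 9 were then above 0, with Arl13b at 1.22, Evc2 at −0.41 and Efcab7 at −0.23. Above 0 were also 4 of 7 BBS genes and 1 of 3 IFT-A genes, with Ift122 at −0.72, Ift140 at −0.12 and Ift43 at 0.56. In p2 the same fit gave −0.35 for Dync2h1 and −0.98 for Ift57.

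**Figure D5:**
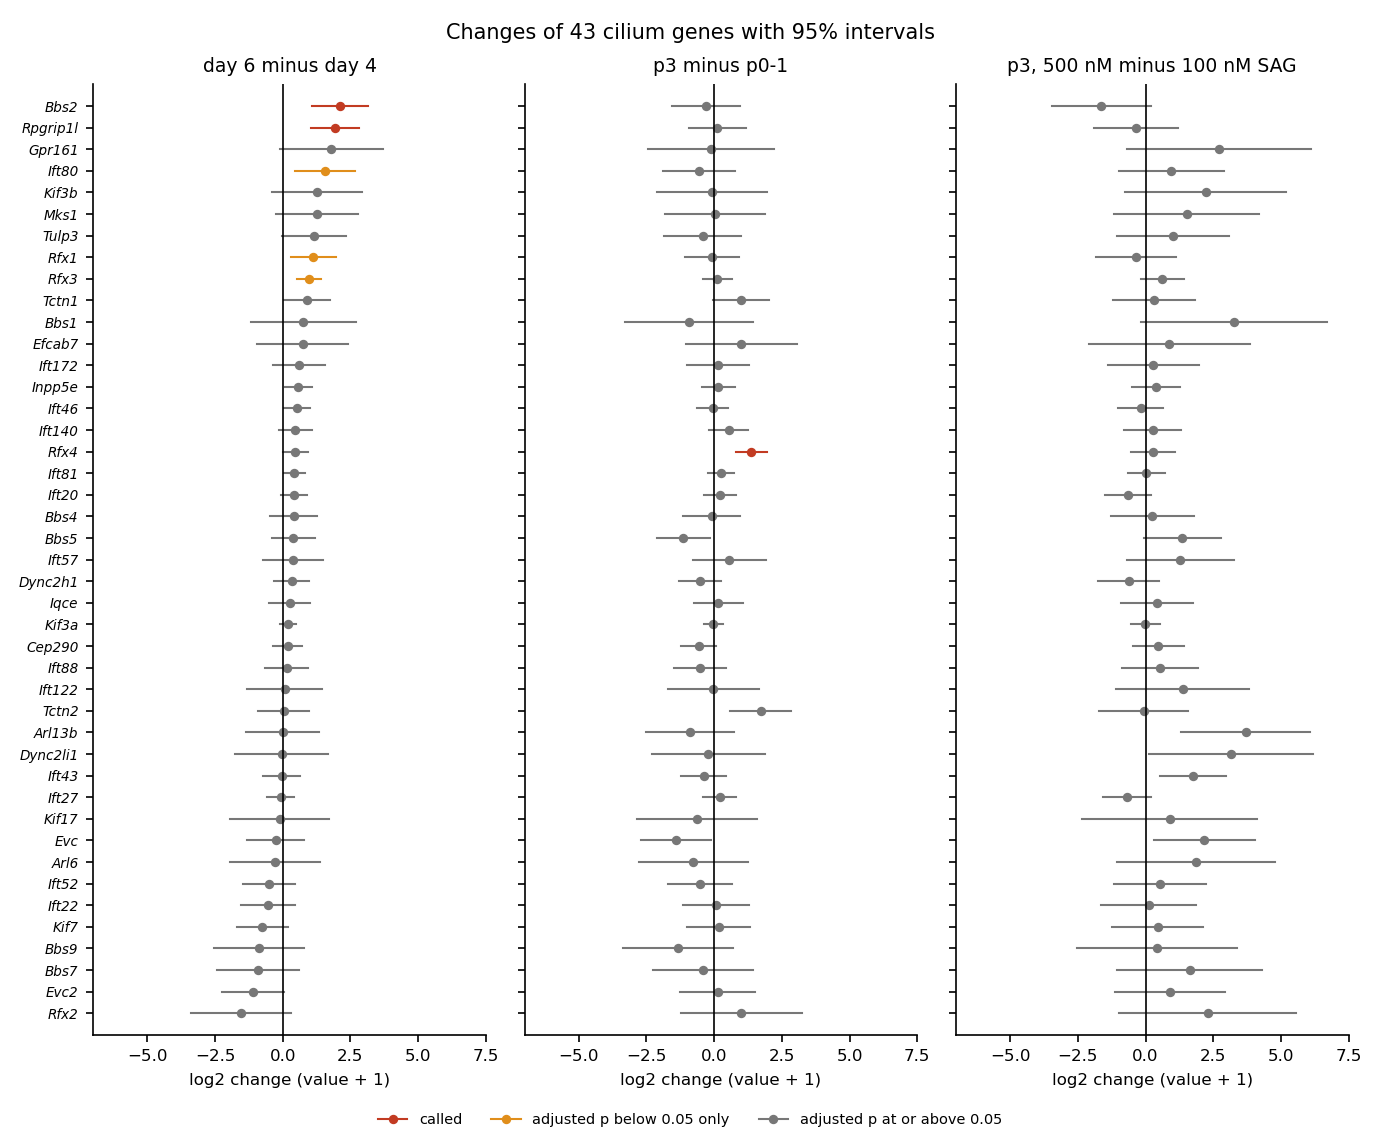
Log2 changes of the 43 tested cilium genes with 95% intervals from limma, for day 6 minus day 4, p3 minus p0-1 and p3 at 500 nM minus 100 nM SAG, on the log2(value + 1) scale; the genes are ordered by the first panel. The called changes are Bbs2 (2.12) and Rpgrip1l (1.92) by day and Rfx4 (1.38) in p3, and none with SAG; the orange points passed an adjusted p of 0.05 only.

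The change from day 4 to day 6 was compared between p3 and p0-1 cells. By limma, 0 of 43 cilium genes were called, beside 3.03% of all genes. At an unadjusted p below 0.05 there were 10, beside 2117 of all 13964 genes. By edgeR 0 were called, beside 491 of all genes, and by DESeq2 8, beside 2268. At a limma adjusted p below 0.05 there were 3, Ift57, Tctn1 and Rpgrip1l, beside 4.73% of all genes. Ift57, an IFT-B subunit, had 820, 579, 186.5 and 0 normalised reads in the p3 libraries of day 4 and 99.4, 118, 275, 622 and 1057 in those of day 6. In p0-1 it had 495.5 to 737 on day 4 and 0.919, 374.5, 390.5, 458, 525 and 729 on day 6. The groups overlapped. The value of 0.919 was in replicate 2 at 0 nM, where Tctn1 had 11.03 normalised reads. The difference between the 2 changes was 5.76 for Ift57 (SE 1.53, adjusted p = 0.0144), 4.14 for the tectonic gene Tctn1 (SE 1.17, adjusted p = 0.0234) and 3.97 for Rpgrip1l (SE 1.21, adjusted p = 0.0429).

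The lowest p3 value on day 4 was in each case that of replicate 3 at 100 nM. Without this library the differences were 1.36, 1.87 and 0.18, each with a limma adjusted p of 1. Without replicate 2 of the day 6 p0-1 group at 0 nM, that of Tctn1 was 3.57 (limma adjusted p = 0.06). Exons of Tctn1 overlap those of Hvcn1 on the other strand by 1342 bases, and reads of the 2 genes there cannot be told apart.

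The ciliary regulators of the Shh pathway were not called in any comparison by limma. Over 15 comparisons of these 9 genes limma made 0 calls, with 10 at an unadjusted p below 0.05, edgeR made 0 and DESeq2 3. Per comparison, limma called 0 to 1239 of all 13964 genes (0 to 8.87%), and 657 to 4624 had an unadjusted p below 0.05. By edgeR 0 to 1104 were called and by DESeq2 424 to 2902. These ranges are per comparison, while the counts of the 9 genes are summed over the 15 comparisons. Whether the regulators differed from all genes was not tested. DESeq2 called Gpr161 higher on day 5 (2.81, adjusted p = 0.000497) and day 6 (2.74, adjusted p = 0.000667) than on day 4, and Efcab7 on day 6 than on day 5. Gpr161, a ciliary receptor that keeps the pathway low through protein kinase A, had a mean of 47.7 ± 53.2 (SD, n = 3) normalised reads in the NMP, and from day 4 to day 6 of 122 ± 103 (n = 16), 263 ± 200 (n = 24) and 235.5 ± 217 (n = 22). Its limma log2 change from day 4 to day 6 was 1.79 (adjusted p = 0.18). The days overlapped.

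Tulp3, which brings Gpr161 into the cilium with IFT-A, had means of 235 ± 66.5, 167.5 ± 128, 257 ± 192 and 293 ± 130 on days 3 to 6. Inpp5e, a phosphatase that sets the phosphoinositides of the ciliary membrane, had 561 ± 80.8, 382 ± 170, 476 ± 184 and 571 ± 202 on the same days. Arl13b, which recruits Inpp5e, had 124 ± 28.2, 193.5 ± 121, 328.5 ± 156 and 288 ± 203. From day 4 to day 6 the limma log2 changes were 1.16 for Tulp3 (adjusted p = 0.155) and 0.58 for Inpp5e (adjusted p = 0.0921). Exons of Inpp5e overlap those of Pmpca on the other strand by 873 bases.

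Kif7, the kinesin that organises the ciliary tip and controls Gli proteins, had 262 ± 80.7, 444 ± 216, 352 ± 219 and 346 ± 195 normalised reads on days 3 to 6. Evc and Evc2 form the complex at the base of the cilium that passes on the signal of Smo. Evc had 482 ± 91.9, 428 ± 217, 424 ± 300 and 416 ± 257, and Evc2 had 933 ± 120, 578 ± 171, 534.5 ± 358 and 413 ± 224 on the 4 days. The log2 changes from day 4 to day 6 were −0.75 for Kif7 (limma adjusted p = 0.27) and −1.11 for Evc2 (adjusted p = 0.163). Exons of Kif7 overlap those of Ticrr on the other strand by 48 bases.

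Across cell types of days 5 and 6 the same genes overlapped. Kif7 had 348 ± 202 normalised reads in p3, 441 ± 272 in pMN, 303 ± 175 in p2 and 312 ± 162 in p0-1. Gpr161 had 232 ± 173, 172 ± 190, 258 ± 195 and 331 ± 249 in the same order, Tulp3 210 ± 160, 364 ± 158, 254 ± 197 and 272 ± 117, and Arl13b 270 ± 228, 326 ± 120, 320 ± 220 and 319 ± 144. Evc had 338 ± 314, 511 ± 348, 339 ± 180 and 493 ± 233, Evc2 578 ± 405, 562.5 ± 255, 360 ± 219 and 420 ± 295, and Inpp5e 562 ± 196, 542.5 ± 139, 449 ± 208 and 537 ± 234. The p3 minus p0-1 differences were 0.17 for Kif7 (95% interval −0.99 to 1.32), −0.11 for Gpr161 (−2.43 to 2.22), −0.90 for Arl13b (−2.53 to 0.73), −1.41 for Evc (−2.69 to −0.13, limma adjusted p = 0.252) and 0.15 for Inpp5e (−0.46 to 0.76). The interval of Inpp5e is within 2-fold, and that of Gpr161 spans 4-fold in both directions. Without the 5 libraries with the fewest genes, Arl13b differed by 0.34, Gpr161 by 0.13 and Evc by −0.37, so that the first 2 were on the other side of 0.

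Genes of the Shh pathway were tested in the same fit. Of 23 listed pathway genes 22 were tested, and for p3 against p0-1 limma called 3 higher and 3 lower, beside 1.43% of all genes and 1 of 43 cilium genes. The higher genes were the ligand gene Shh (6.96 on the log2 scale), the receptor Ptch1 (2.23) and the effector Gli1 (4.06), and the lower were the co-receptor Gas1 (−1.88), Gli3 (−2.42), which acts mainly as a repressor, and Scube2 (−8.96), which releases the ligand. Shh is also a floor plate marker. For pMN against p0-1 the pathway list had 3 higher and 3 lower, beside 0.96% of all genes, and for p2 against p0-1 it had 3 higher and 0 lower, beside 0.322%. From day 3 to day 4 it had 5 higher (Ptch1, Gas1, Gli1, Scube2 and Lrp2) and 0 lower, beside 3.49% of all genes. Without the only day 4 p3 library at 100 nM, Gli1 was not called there (2.72, limma adjusted p = 0.0104). With SAG within a cell type, limma made 0 calls on the pathway list over 4 comparisons, with 8 at an unadjusted p below 0.05. There edgeR made 0 calls and DESeq2 2. The counts over all genes for each of the 4 are given with SAG concentration above. The difference between the counts of the lists was not tested.

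Some cilium genes outside the 44 were also called. Of 17 further IFT and motor genes tested, limma called Tctex1d2 higher on day 5 than on day 4 (1.41, adjusted p = 0.000303). It also called Rabl2 higher on day 6 than on day 4 (2.00, adjusted p = 0.00404). Called over all genes were 4.3% (3.1% higher) and 8.87% (5.83% higher) in these comparisons. Without the only day 4 p3 library at 100 nM neither Tctex1d2 nor Rabl2 was called (0.40, adjusted p = 0.467, and 1.47, adjusted p = 0.047). In the comparison of changes between p3 and p0-1, Tctex1d2 and 2 of 16 further transition zone genes tested, Tmem231 and Iqcb1, were called (3.44 to 5.71). There 3.03% of all genes and 0 of the 43 cilium genes were called. Without the same day 4 p3 library the differences of Tctex1d2, Tmem231 and Iqcb1 were −0.13 to 1.77 and none was called.

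Over the 15 comparisons, limma made 0 calls on 4 further lists. For BBS cargo transport (14 genes tested) 17 results had an unadjusted p below 0.05, with 1 call by edgeR and 1 by DESeq2. For the basal body and centriole (19 tested) 32 had an unadjusted p below 0.05, with 0 calls by edgeR and 2 by DESeq2. For the motile cilium, 15 of 35 listed genes were tested, 21 results had an unadjusted p below 0.05, and edgeR made 0 calls and DESeq2 29. For the other RFX family members (4 tested of 6 listed) 3 had an unadjusted p below 0.05, with 0 calls by edgeR and 1 by DESeq2. The ranges over all genes are those given with the ciliary regulators. Those ranges are per comparison, while the counts here are summed over the 15 comparisons, so they are not shares on the same base. Whether a list differed from all genes was not tested.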

How the data were processed

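Libraries were made from RNA of fixed, sorted cells by the authors with SMART-Seq HT and Nextera XT kits, which do not mark strand. Reads were aligned to mm10 with spike-in sequences, counted per gene with featureCounts, with duplicates ignored, and libraries failing the authors' quality checks were removed. The deposited signal values are gene counts divided by a size factor per library. Whole reads were recovered for 100.0% of 834400 values above 0 (within 0.01 read), so the deposited values and the recovered read counts describe the same reads. Whether the counting used strand is not given in the sources used here.

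The main test was limma 3.58.1 in R 4.3.3 with an intensity trend on log2(value + 1), with 25 group means over all 65 libraries. The added 1 can understate changes of low genes, and zeros in single libraries can enlarge changes. For Ift57 the difference of changes was 5.76, and 3.72 with a pseudocount of 10. Genes with a mean below 10 were left out, which kept 13964. Contrasts weighted the groups compared equally. Calls needed a change over 2-fold and, after Benjamini-Hochberg adjustment over all genes tested, a p below 0.01. SD values are over libraries. Cell types were compared over days 5 and 6, days over the progenitor groups, and SAG concentrations within a cell type over days 5 and 6. edgeR 4.0.16 (quasi-likelihood) and DESeq2 1.42.0 were run on the recovered counts. The scripts were tested on simulated counts. Named are genes called or with an adjusted p below 0.05, otherwise those with the 2 lowest p-values, and 12 genes (the RFX factors, Foxj1 and 7 Shh regulators) whatever their values. Tctn2, Ift81, Bbs4, the genes at the ends of ranges, those whose direction differed without the 5 libraries with the fewest genes and the members called only by edgeR or DESeq2 were named after their values were seen. The members and lists were chosen with earlier results of these data known. A few listed genes are not reported here.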

Additional observations from a re-analysis of the deposited data

Results flagged for a closer look

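The change from day 4 to day 6 differed between p3 and p0-1 cells for 3 cilium genes at a limma adjusted p below 0.05, by a test of the difference itself. On the log2 scale the difference was 5.76 for Ift57, 4.14 for Tctn1 and 3.97 for Rpgrip1l, with the log2 change of p3 above that of p0-1. Each was lost without the only p3 library at 100 nM SAG on day 4, when the values were 1.36, 1.87 and 0.18. In p0-1 on day 6, Ift57 was at 0.919 in replicate 2 at 0 nM.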

How the results depend on the processing

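Among the cilium genes that passed either threshold, no direction reversed in the alternatives run. Among those that passed neither, directions did change without the 5 libraries with the fewest genes: Bbs7 for day 6 against day 4 went from −0.92 to 0.02, and for p3 against p0-1 Arl13b went from −0.90 to 0.34 and Gpr161 from −0.11 to 0.13. In all, 8 of 43 cilium genes changed sign for day 6 against day 4, 10 for p3 against p0-1 and 11 for p3 at 500 against 100 nM. Depth and zeros limit these values. The count of cilium genes called by limma moved as follows, and the cause was not tested. For day 4 against day 3 (2) edgeR called 1 (Rfx4) and DESeq2 4 (also Ift80 and Mks1, lower). For day 5 against day 4 (1) a pseudocount of 10 gave 0, an adjusted p below 0.05 at any fold 5, edgeR 2 and DESeq2 7. For day 6 against day 4 (2) the looser threshold gave 5 and DESeq2 9. DESeq2 called 1 for day 6 against day 5. For p3 against pMN (0) a pseudocount of 10 and the looser threshold each gave 2, a fit on the compared libraries only 1, edgeR 1 and DESeq2 2. For p3 against p0-1 (1) no filter gave 2. DESeq2 called 2 for pMN against p0-1 and 1 each with SAG in p0-1, p2 and p3. For the difference of changes between p3 and p0-1 (0) the looser threshold gave 3 and DESeq2 8. Of all 13964 genes, DESeq2 called 1067 for day 4 against day 3 and 2321 for day 5 against day 4. In the same comparisons edgeR called 410 and 619. Further, DESeq2 called 2902 of all genes for day 6 against day 4 and 2268 for the difference of changes. Alternatives chosen after seeing the data were single SAG concentrations or days and the 5 libraries with the fewest genes left out. The latter gave 0 for day 5 against day 4, 0 for day 6 against day 4 and 1 for p3 against pMN. For p3 against p2 (1), comparing only the 100 nM, day 5 or day 6 groups gave 0. For p3 against p0-1, comparing only the day 5 groups gave 0. These narrowed comparisons took the spread from all 65 libraries. Leaving out single libraries gave 1 to 2 for day 4 against day 3, 0 to 3 for day 5 against day 4, 0 to 4 for day 6 against day 4, and 0 to 1 for p3 against pMN, p3 against p0-1, SAG in pMN (1 without replicate 1 at 500 nM on day 6) and the difference of changes, and left the other counts as they were. The 3 for day 5 against day 4 came without the only day 4 p2 library at 10 nM or replicate 3 of the day 6 p2 group at 100 nM, and leaving out any of 10 other libraries gave 2. The 4 for day 6 against day 4 came without the only day 4 p2 library at 10 nM. The call in the difference of changes came without replicate 3 of p0-1 at 10 nM on day 5, replicates 1 or 3 of p0-1 at 0 nM on day 6, or replicates 1 or 3 of p2 at 100 nM on day 6. TMM scaling and a minimum mean of 100 changed no count. Over 634 pairs of libraries with the same replicate number the median correlation of deviations was 0.0162, with 5 over 0.1. Over 1262 pairs with different numbers it was −0.00793, with 0 over 0.1. The highest values were 0.122 and 0.0925. Whether replicate numbers pair the libraries was not settled by these values, and the main test did not use the numbers. A replicate block gave 3 for day 6 against day 4 and 1 for the difference of changes, and changed no other count of calls. The Rfx4, Bbs2, Rpgrip1l, Kif3a and Rfx2 values that changed are given beside the results.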
